A study of Homo sapiens with 4 samples.

Results

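The 4 human genes for protease-activated receptors, F2R, F2RL1, F2RL2 and F2RL3, were examined in untreated HEK293 cells. They were chosen by name, as the array targets whose RefSeq accession belongs to 1 of these genes, and they are 4 of the 17217 named genes on the array. HEK293 is a line of human embryonic kidney cells transformed with adenovirus DNA, and it serves in many laboratories as a host for cloned receptors. The samples were 4 biological replicates of 1 group, each a separate plate of the untreated line grown to confluence in medium with serum, so no treatment, genotype or time could be compared. RNA copied from an oligo(dT) primer was labelled and hybridised in 1 colour to a NimbleGen array that carried 3 probes for each receptor.

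Protease-activated receptors are G protein-coupled receptors that carry their own ligand. A protease cuts the extracellular amino terminus, and the new end folds back as a tethered ligand that switches the same receptor on. Thrombin cuts the products of F2R (PAR1), F2RL2 (PAR3) and F2RL3 (PAR4), the receptors known from platelets, while trypsin-like proteases cut the product of F2RL1 (PAR2), known from epithelia. The active receptors signal through the Gq, G12 and Gi classes of G protein, and since a cut receptor cannot be reset, signalling ends by arrestin binding, internalization and lysosomal sorting.

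The study asked whether message for each receptor lies above a level taken as no expression. That level, the baseline, was the mean plus 2 SD of 10 seminal protein genes on the same array, and it stood at 9.47, 9.94, 10.69 and 10.32 log2 units on replicates 1 to 4. A gene's distance is its log2 level minus the baseline of the same array, and detection meant a mean distance over the 4 arrays above 0. Of all named genes 52.7% were detected, 45.0% exceeded the baseline on each array and 45.9% were called above it by limma, a moderated test fitted across all genes. This test took the same standard error, 0.351 log2 units, for every gene, so its p-values do not rest on the SD printed beside them. Every probe has its own affinity, so the distance of a gene says on which side of the baseline it lies and not how much more of 1 message than of another the cells held.

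F2R and F2RL1 were detected and F2RL2 and F2RL3 were not. The detected receptors, 2 of the 4, exceeded the baseline on each array, and limma called the same 2. These counts of 2 in 4 stand beside backgrounds of 52.7%, 45.0% and 45.9%, and nothing can be read from them about the family as a whole. F2RL2 lay below the baseline on every array, and F2RL3 lay below it on 3 of 4.

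F2R encodes PAR1, the thrombin receptor first cloned from platelets and endothelium. Its log2 level was 11.73, 12.45, 12.24 and 12.18 on replicates 1 to 4. The 4 arrays lay within 0.72 log2 units of each other, and all of them stood above their baseline, by 1.55 at the least. The mean distance was 2.04 ± 0.43 log2 units (SD, n = 4), or 4.13 times the baseline on the linear scale (limma adjusted p = 1e-08 over all genes). The mean distance of F2R exceeded that of 70.1% of named genes.

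F2RL1 encodes PAR2, the receptor for trypsin and mast cell tryptase. The 4 arrays gave log2 levels of 12.16, 11.62, 12.25 and 11.60. Replicates 1 and 3 were higher than replicates 2 and 4, over a range of 0.65 log2 units, and all 4 arrays stood above their baseline. The distances were 2.69, 1.68, 1.56 and 1.28, with a mean of 1.80 ± 0.61 log2 units (SD, n = 4, limma adjusted p = 4.3e-07).

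F2RL2 encodes PAR3, which in mouse platelets presents thrombin to PAR4 rather than signalling strongly itself. On replicates 1 to 4 its log2 level was 7.93, 6.52, 8.45 and 7.94. All arrays were below the baseline, by 1.54 on the nearest and 3.42 on the farthest, and replicate 2 was the lowest. The mean distance was -2.39 ± 0.78 log2 units (SD, n = 4), and the limma test in the other direction, which called 41.0% of all genes below the baseline, called F2RL2 too (adjusted p = 1.9e-11). That call held in 16 of 19 alternatives. It was lost without the control genes AFG2A and SPATA13 (limma adjusted p = 1), with olfactory receptor genes as controls (0.551) and with the median and scaled MAD of the controls (0.079), and in the last 2 F2RL2 lay above the baseline on 2 of 4 arrays.

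F2RL3 encodes PAR4, a thrombin receptor with lower affinity than PAR1. Its log2 level was 7.44, 10.39, 9.29 and 10.18 on replicates 1 to 4, a range of 2.95 log2 units. Replicate 2 stood above the baseline by 0.45, replicate 4 lay just under it at -0.14, and replicates 3 and 1 lay below it at -1.41 and -2.03. The mean distance was -0.78 ± 1.14 log2 units (SD, n = 4), so that the baseline lay within 1 SD of the mean. With a standard error of 0.351 shared by all genes, not its own spread, F2RL3 was called below the baseline by limma (adjusted p = 0.032). That call was lost without replicate 1 (adjusted p = 0.327) and without replicate 3 (adjusted p = 0.157), and it held in 7 of 19 alternatives, over which its adjusted p ran from 4.8e-08 to 1. The SD of the F2RL3 level over arrays, 1.35 log2 units, was larger than that of 98.8% of named genes. For F2R and F2RL1 the SD was 0.30 and 0.35 log2 units, below the median of 0.42 over all genes, and for F2RL2 it was 0.83, larger than in 90.4% of genes.

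The arrays themselves were not equally alike. Pearson's r across named genes (genes are no independent replicates) was 0.971 between replicates 1 and 3 and 0.977 between replicates 2 and 4, while the other 4 pairs of arrays ran from 0.949 to 0.959. Replicates 2 and 4 each gave a higher F2RL3 level, and a lower F2RL1 level, than replicates 1 and 3 did, while F2R and F2RL2 did not fall into those pairs. The part of this array structure in the spread of F2RL3 was not tested. A different pairing appeared in the distribution of values. Replicates 1 and 2 had the same sorted values within 0.01 log2 units at 99.97% of ranks, and so had replicates 3 and 4 at 99.99%, as after quantile normalization of each pair by itself. Within these pairs the mean distances were 2.39 and 1.70 for F2R and 2.19 and 1.42 for F2RL1. They were -2.48 and -2.31 for F2RL2 and -0.79 and -0.77 for F2RL3. Each mean kept its side of the baseline in both pairs, but for F2RL3 replicates 1 and 2 lay on opposite sides, at -2.03 and 0.45. The SD of F2RL3 was 1.76 and 0.89 (n = 2 for each), and neither pair called it below the baseline (limma adjusted p = 0.115 and 0.082).

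The 3 probes of a receptor did not always give the same picture. For F2R they lay within 0.24 to 0.66 log2 units of each other on an array, and all 12 probe values, from 11.53 to 12.62, were above the baseline. The mean spread of 0.38 between the F2R probes was tight, since 0.592% of the 23999 targets with 3 probes had a smaller one and the median target had 1.67. Every F2R probe ranked above 69.1% to 80.4% of all probes on its array.

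For F2RL1, 11 of 12 probe values were above the baseline. Its first probe was the highest on every array, at 12.77, 12.18, 13.35 and 12.09 log2 units on replicates 1 to 4. Probe 3 read 11.77, 11.69, 10.17 and 11.44, and on replicate 3 it lay 0.52 log2 units under the baseline while the first probe lay 2.66 over it. Without the first probe the F2RL1 gene stood at 1.21 log2 units above the baseline and was still called (limma adjusted p = 0.00071). The mean spread of its probes, 1.73 log2 units, was near the median target.

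None of the 12 probe values of F2RL2 reached the baseline (0 of 12). They ran from 6.07 to 9.32 log2 units, and the probes did not keep their order between arrays. The first probe of F2RL2 was the highest on replicate 1, at 8.54, and probe 3 was the highest on replicates 3 and 4, at 9.32 and 8.76. The highest of these values stood above 49.3% of the probes on its array.

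For F2RL3, 3 of 12 probe values passed the baseline. Its first probe was the lowest on every array, at 6.27, 8.84, 6.76 and 7.54 log2 units. Probe 2 read 6.82, 10.88, 9.55 and 10.07, and probe 3 read 8.36, 10.72, 9.99 and 11.11. All 3 probes were higher on replicates 2 and 4 than on replicates 1 and 3, so the array differences of F2RL3 were shared by its probes. The probes above the baseline were probes 2 and 3 on replicate 2, by 0.94 and 0.78, and probe 3 on replicate 4, by 0.79. Without its first probe the gene stood at -0.34, above the baseline on 2 arrays, and without probe 3 it stood at -1.40. The mean spread between the F2RL3 probes, 2.73 log2 units, was larger than that of 77.1% of targets.

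**Figure D1:**
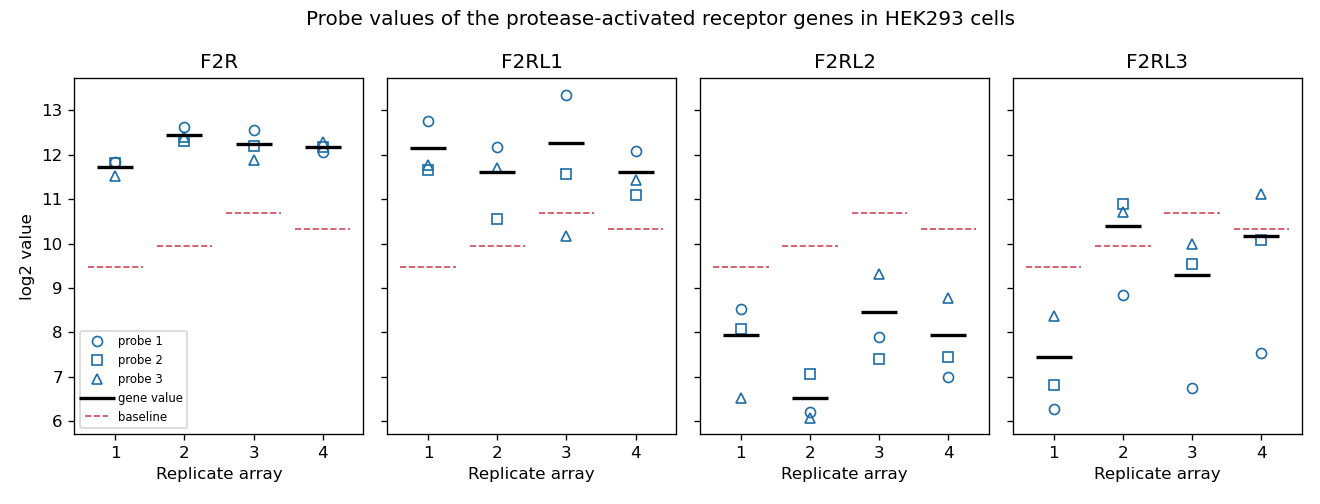
Log2 value of each of the 3 probes (open symbols) and of the gene (black bar) on the 4 replicate arrays, with the baseline of each array as a dashed line, in a panel for each receptor gene. All F2R probes sit together above the baseline, 1 F2RL1 value falls under it, no F2RL2 value reaches it, and 3 F2RL3 values pass it.

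Genes for olfactory receptors, which are thought to be silent outside the nose, gave another background. Of 364 such genes, the highest had a mean level of 10.25 log2 units and the median gene had 6.68. F2R and F2RL1 lay above all 364 olfactory receptor genes on every array. F2RL3 had a mean level of 9.32, and 3 olfactory receptor genes were higher. On replicates 1 to 4 F2RL3 lay above 92.3%, 99.7%, 99.2% and 99.7% of them. F2RL2, at a mean level of 7.71, lay above 95.1% of them, though on replicate 2 it lay above 69.5% only. F2RL2 and F2RL3 were therefore under the seminal baseline and yet in the upper tail of a larger set of genes of that kind. Among all named genes they were not high, since the mean distance of F2RL2 exceeded that of 25.1% and F2RL3 that of 40.4%.

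**Figure D2:**
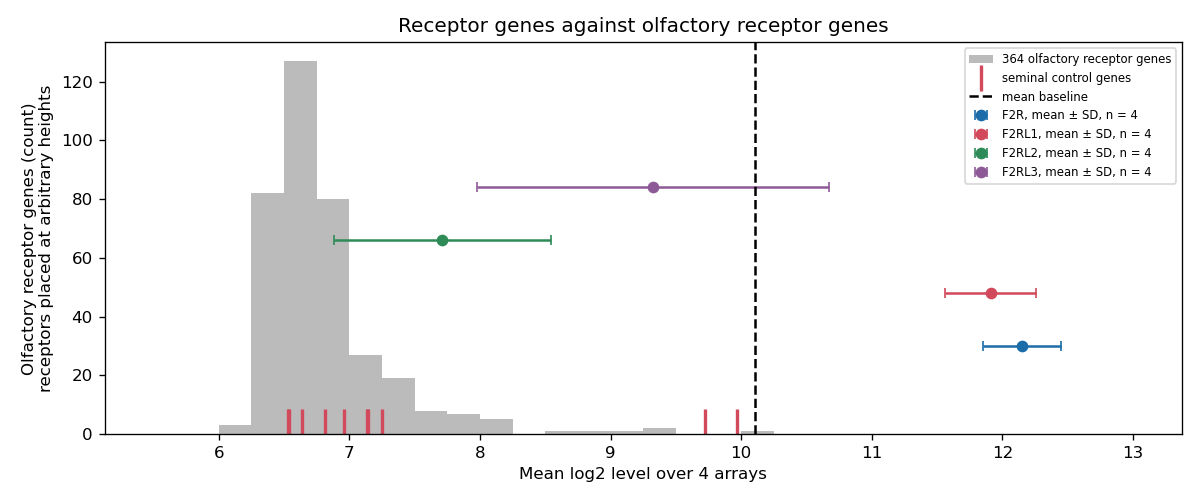
Histogram of the mean log2 level of 364 olfactory receptor genes, with the mean ± SD over 4 arrays of each receptor gene, the 10 seminal control genes as ticks and the mean baseline of 10.10 as a dashed line. F2R and F2RL1 stand to the right of every olfactory receptor gene, and F2RL2 and F2RL3 fall between the bulk of these genes and the baseline.

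The side of the baseline on which a receptor fell depended on where the baseline was put, among the alternatives run, for F2RL3 alone. F2R and F2RL1 were above it in 19 of 19 alternatives each, and the mean of F2RL2 was below it in 19 of 19. With 3 SD in place of 2 the distances of F2R and F2RL1 were 0.73 and 0.49 log2 units and the limma test no longer called them (adjusted p = 0.095 and 0.306). The seminal genes AFG2A, listed by the study as SPATA5, and SPATA13 were higher than the other 8 controls on each array. Without them F2RL3 stood at 1.55 ± 1.21 log2 units (SD, n = 4, limma adjusted p = 1.2e-05) and F2RL2 at -0.07 ± 0.75 (SD, n = 4), above the baseline on 3 of 4 arrays. With olfactory receptor genes as controls F2RL3 stood at 1.30 ± 1.26 (SD, n = 4, limma adjusted p = 0.00057).

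**Figure D3:**
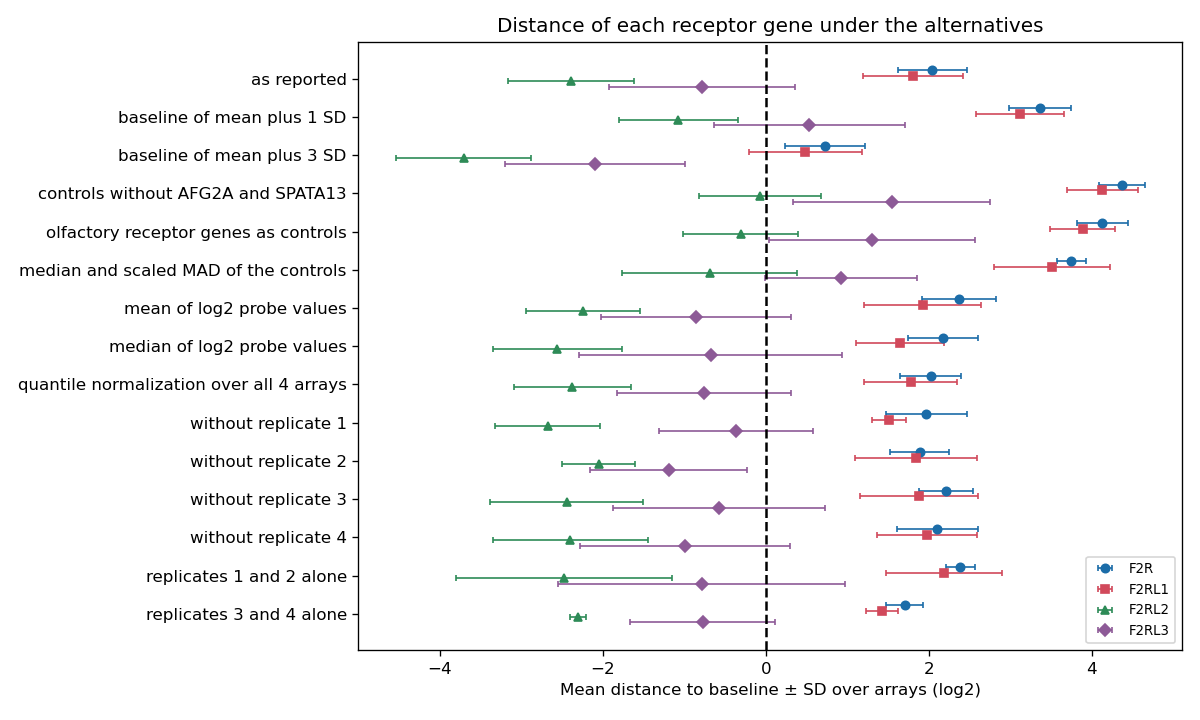
Mean distance to the baseline (log2 units, ± SD over the arrays used) of the 4 receptor genes under each alternative that moves a distance, apart from the removal of single probes. The means of F2R and F2RL1 stay right of 0 and that of F2RL2 left of it in every setting shown, while F2RL3 crosses to the right in the 4 settings with a lower baseline.

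F2RL2, F2R and F2RL1 are neighbours on chromosome 5, in that order in the RefSeq annotation of GRCh38.p14, and F2RL3 lies apart on chromosome 19. The array was designed on an older assembly, so the annotation was used for gene order only. The undetected F2RL2 thus sits next to the detected pair. F2RL2 also lies inside the span of IQGAP2, a scaffold gene on the opposite strand, and both strands of the cDNA were labelled, so the signal carries no strand. IQGAP2 had distances of 0.43, 1.80, -1.11 and 0.84 on replicates 1 to 4, a mean of 0.49 ± 1.21 log2 units (SD, n = 4). Its part in the F2RL2 signal was not tested.

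Beyond F2RL1 the next measured genes were S100Z at -2.42 ± 0.53 and CRHBP at -3.35 ± 0.70 (SD, n = 4 for each), and neither reached the baseline on any array. AGGF1, the gene after them, stood at 2.60 ± 0.53, and on the other side SV2C stood at -3.53 ± 0.41 and POC5 at 2.22 ± 0.88 (SD, n = 4 for each). Around F2RL3, the measured gene before it was SIN3B, a transcriptional corepressor, at 1.12 ± 0.53 log2 units (SD, n = 4), which passed the baseline on each array. The gene after it was CPAMD8, at -3.35 ± 0.52 (SD, n = 4). Farther out, TMEM38A stood at -0.78 ± 1.17, NWD1 at -3.21 ± 0.49, HAUS8 at 1.84 ± 0.83 and MYO9B at 0.50 ± 0.60 (SD, n = 4 for each). Detected and undetected genes were mixed in both neighbourhoods.

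**Figure D4:**
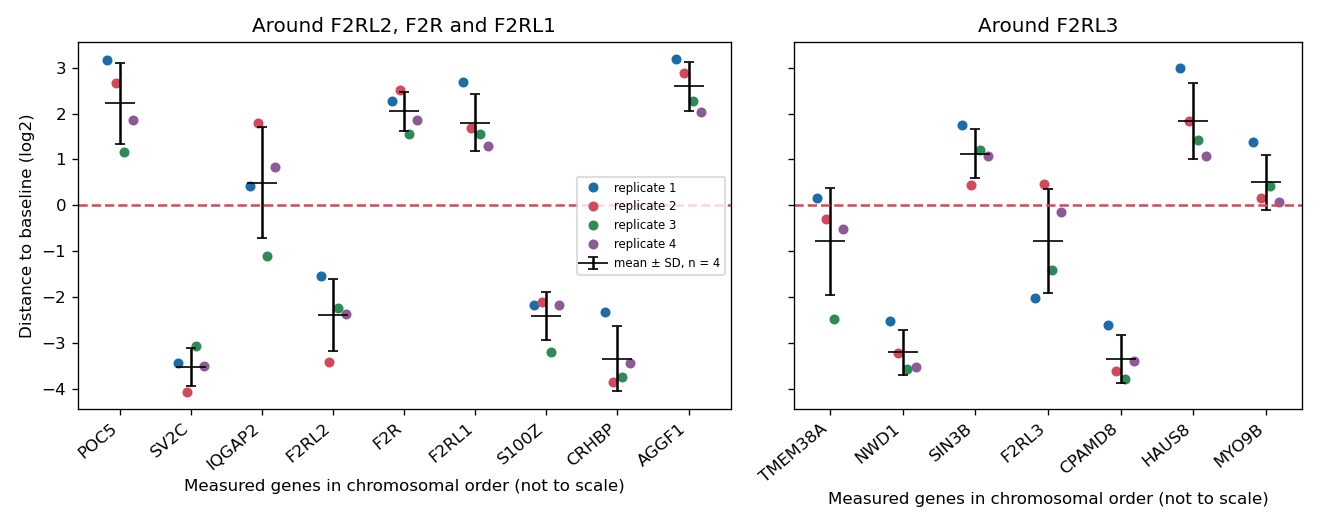
Distance to the baseline (log2 units) of the measured genes on either side of the receptor genes, in chromosomal order and not to scale, as a point for each replicate array with the mean ± SD (n = 4). F2R and F2RL1 stand above 0 between the low values of F2RL2 and S100Z, and F2RL3 straddles 0 between SIN3B and CPAMD8.

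Promoter sequence was compared because neighbouring members fell on opposite sides of the baseline. RefSeq windows of 250 bases before to 50 bases after the gene start (GRCh38.p14) were at hand for 3 of the members, F2RL1, F2RL2 and F2RL3. They are printed 5′ to 3′ on the strand of the gene, with each CG dinucleotide in capitals. CG reads the same on both strands. The windows are chr5:76818780-76819079 on the plus strand for F2RL1, chr5:76623354-76623653 on the minus strand for F2RL2 and chr19:16888749-16889048 on the plus strand for F2RL3.
F2RL1: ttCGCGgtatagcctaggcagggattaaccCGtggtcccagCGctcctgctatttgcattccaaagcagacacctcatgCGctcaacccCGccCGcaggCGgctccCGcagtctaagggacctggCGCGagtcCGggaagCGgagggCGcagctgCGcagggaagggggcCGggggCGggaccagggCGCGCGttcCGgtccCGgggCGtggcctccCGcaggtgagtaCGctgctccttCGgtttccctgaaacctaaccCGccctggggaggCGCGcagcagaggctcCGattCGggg
F2RL2: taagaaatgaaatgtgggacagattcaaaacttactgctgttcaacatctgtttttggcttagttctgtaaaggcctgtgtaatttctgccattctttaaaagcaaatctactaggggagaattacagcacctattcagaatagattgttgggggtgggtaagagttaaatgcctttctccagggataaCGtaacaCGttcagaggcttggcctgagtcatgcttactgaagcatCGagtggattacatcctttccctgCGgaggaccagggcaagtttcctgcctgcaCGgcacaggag
F2RL3: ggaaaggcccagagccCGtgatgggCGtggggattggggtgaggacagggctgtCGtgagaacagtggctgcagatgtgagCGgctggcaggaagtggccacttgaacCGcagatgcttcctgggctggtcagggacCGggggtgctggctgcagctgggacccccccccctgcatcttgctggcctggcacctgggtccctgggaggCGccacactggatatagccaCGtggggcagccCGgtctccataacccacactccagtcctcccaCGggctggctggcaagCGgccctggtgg

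The F2RL1 window held 31 CG dinucleotides and 69.0% G and C, and 79.3% of 35116 windows of the same length held fewer CG. The F2RL2 window held 5, with 44.7% G and C, and 29.6% of windows held fewer. The F2RL3 window held 11, with 67.3% G and C, and 45.3% of windows held fewer, against a median of 14 over all windows. Of 13807 measured genes with a window (the first listed where a gene had several), 71.0% held fewer CG than F2RL1. Fewer than F2RL2 were held by 15.5% of them, and fewer than F2RL3 by 26.6%. Of these measured genes 55.0% were detected. The share was 72.4% of the 3999 genes with at least as many CG as F2RL1 and 48.7% of the 10169 with at most as many. For F2RL3 it was 68.4% of the 10129 genes with at least as many and 18.8% of the 3858 with at most as many. For F2RL2 it was 62.7% of the 11669 genes with at least as many and 13.4% of the 2498 with at most as many. F2R, the other detected member, had no window. These shares describe genes on these arrays, and with 3 windows no relation within the family can be tested.

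The rest of the pathway was read from 7 lists of 107 genes, all of them measured, of which 53 were detected. The counts below stand beside 52.7% detected, a median distance of 0.26 log2 units, and 45.9% called above and 41.0% called below the baseline by limma over all named genes.

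Proteases that can cut these receptors were mostly under the baseline. Of 26 activating proteases 2 were detected, 1 was called above the baseline and 21 were called below it, with a median distance of -2.20 log2 units. The called gene was LGMN, the lysosomal protease legumain, at 4.96 ± 0.46 log2 units (SD, n = 4). PRSS2, a trypsinogen, stood at 0.01 ± 1.30 (SD, n = 4) and above the baseline on 1 array only, so that it counted as detected in the mean but not by the test (limma adjusted p = 0.923). Its relatives PRSS1 and PRSS3 stood at -2.23 ± 0.61 and -2.73 ± 0.68 (SD, n = 4 for each), and trypsinogen genes are close enough in sequence that probes may be shared. F2, which encodes thrombin itself, stood at -1.92 ± 0.40, and ST14, the membrane protease matriptase, at -1.54 ± 0.72 (SD, n = 4 for each), named after their values were seen. Without AFG2A and SPATA13 as controls 14 of the proteases were detected.

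Cofactors that hold or steer these proteases gave 3 of 9 detected, all of them called above the baseline, and 5 called below, with a median distance of -1.17 log2 units. PROS1, the cofactor protein S, stood at 2.18 ± 0.74 and PROCR, the endothelial protein C receptor on which activated protein C can cut PAR1, at 1.90 ± 0.87 log2 units (SD, n = 4 for each). The other one was GP1BA, which binds thrombin on platelets, at 1.11 ± 1.12 (SD, n = 4) and above the baseline on 3 arrays. Its partner GP1BB stood at -0.10 ± 0.37, and named after their values were seen, tissue factor (F3) stood at -1.17 ± 1.20 and thrombomodulin (THBD) at -2.99 ± 0.49 (SD, n = 4 for each). The count detected was 6 of 9 under each of the 4 lower baselines.

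Inhibitors of the proteases gave 5 of 15 detected, all called above, and 10 called below, with a median distance of -2.42 log2 units. SPINT2 and SPINT1, membrane-bound Kunitz inhibitors of matriptase and related enzymes, stood at 4.71 ± 0.81 and 3.09 ± 0.72, and SERPINE2, the thrombin inhibitor protease nexin-1, at 3.92 ± 0.80 log2 units (SD, n = 4 for each). The remaining pair were the tissue factor pathway inhibitors TFPI at 2.02 ± 0.50 and TFPI2 at 1.18 ± 1.43 (SD, n = 4 for each), TFPI2 on 3 of 4 arrays. SERPINC1, the plasma inhibitor antithrombin, stood at -2.44 ± 0.69 (SD, n = 4).

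G protein alpha subunits of the classes that protease-activated receptors use gave 7 of 11 detected, and these 7 exceeded the baseline on each array. Their median distance was 1.46 log2 units, and 3 were called below. All 11 were detected without AFG2A and SPATA13 and with olfactory receptor genes as controls. The Gq-class genes GNA11 and GNAQ stood at 3.08 ± 0.60 and 2.45 ± 0.76, the genes GNA13 and GNA12 at 2.48 ± 0.89 and 1.22 ± 0.63, and the Gi-class genes GNAI2, GNAZ and GNAI3 at 3.77 ± 0.54, 2.05 ± 0.64 and 1.46 ± 0.56 log2 units (SD, n = 4 for each). Each of the 3 classes thus had 2 or more detected members. GNAI1 lay at the baseline, at -0.02 ± 0.92 (SD, n = 4), and the blood cell subunit GNA15 stood at -2.08 ± 0.69 (SD, n = 4).

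Effectors gave 11 of 13 detected and 10 called above, with a median distance of 2.12 log2 units. The small GTPase RHOA stood at 4.77 ± 1.11, its exchange factor ARHGEF1 at 3.80 ± 0.70 and its kinase target ROCK1 at 3.25 ± 0.67 log2 units (SD, n = 4 for each). Of the calcium branch, the phospholipase C gene PLCB3 stood at 2.14 ± 0.32 and the IP3 receptor gene ITPR3 at 2.75 ± 0.41 (SD, n = 4 for each). PLCB4 and PLCB2 stood at -0.95 ± 0.93 and -2.78 ± 0.79 (SD, n = 4 for each), the 2 effectors that were not detected.

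Desensitisation and sorting genes gave 21 of 23 detected, 20 called above and 1 called below, with a median distance of 2.52 log2 units. Clathrin heavy chain (CLTC) stood at 5.37 ± 0.66, the beta-arrestin gene ARRB2 at 4.79 ± 0.64 and the late endosome GTPase gene RAB7A at 4.76 ± 0.71 log2 units (SD, n = 4 for each). ARRB1, the other beta-arrestin gene, stood at 0.68 ± 0.60 (SD, n = 4), above the baseline on 3 arrays. It thus counted as detected in the mean but was not called (limma adjusted p = 0.057). The paper, by its own rule, reports significant message for both beta-arrestins in HEK293 cells. Among kinases that phosphorylate receptors, GRK5, which acts on PAR1, stood at 1.84 ± 0.38, GRK6 at 1.85 ± 0.50 and GRK3 at 1.59 ± 0.60 (SD, n = 4 for each). GRK2 stood at -3.50 ± 0.68 (SD, n = 4). The mean GRK2 level of 6.60 log2 units lay under the 6.68 of the median olfactory receptor gene. Whether the GRK2 probes report its message was not tested. The ubiquitin ligase genes NEDD4 and NEDD4L stood at -0.06 ± 0.87 and 2.52 ± 0.70 (SD, n = 4 for each).

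Genes that thrombin is known to induce in other cells gave 4 of 10 detected, 3 called above and 4 called below, with a median distance of -0.51 log2 units. CCN1, a matricellular protein gene, stood at 4.21 ± 0.69 and EGR1, an immediate early transcription factor, at 1.27 ± 0.91 log2 units (SD, n = 4 for each). The chemokine gene CXCL8 stood at -1.97 ± 0.32 (SD, n = 4). The count detected was 1 with a baseline of 3 SD and 8 without AFG2A and SPATA13 or with olfactory receptor genes as controls. No agonist was added in this study, but the cells grew in medium with serum, and the part of serum in these levels was not tested.

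**Figure D5:**
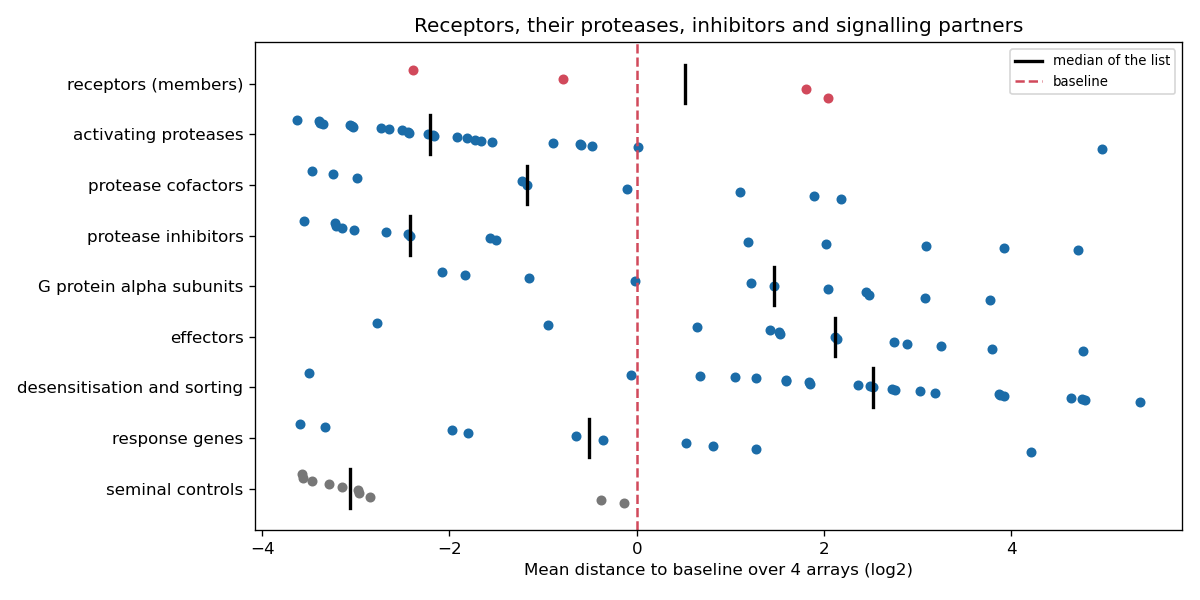
Mean distance to the baseline over 4 arrays (log2 units) of each gene of the receptor family, of the 7 pathway lists and of the 10 seminal controls, with the median of each list as a black bar and the baseline as a dashed line. Activating proteases lie left of the baseline except LGMN and PRSS2, and most G protein, effector and sorting genes lie right of it.

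Other receptors for agonists that platelets and serum release were set beside the family. Of 10 measured lysophospholipid receptors 4 were detected and 0 exceeded the baseline on each array, the highest being LPAR1 at 0.76 ± 0.89 log2 units (SD, n = 4). The limma test called 1 of the 10 above the baseline. The count detected was 0 with a baseline of 3 SD, 8 without AFG2A and SPATA13, 7 with olfactory receptor genes as controls and 2 on replicates 3 and 4 alone. Of 9 measured P2Y receptors 1 was detected, P2RY11, at 0.50 ± 0.77 (SD, n = 4), and 0 exceeded the baseline on each array. The paper counts P2RY1, like F2R, F2RL1 and LPAR1, among earlier reported receptors that it also found in HEK293 cells. Here P2RY1 stood at -2.34 ± 0.35 log2 units (SD, n = 4), below the baseline on every array. The reason for this difference from the paper was not tested. The limma test called 0 of the 9, and at an unadjusted p under 0.05 it would have called 0. The difference between these families and the protease-activated receptors was not tested. LPAR2 and P2RY13 had no matched accession.

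Array-to-array patterns were compared by the root mean square difference between the deviations of 2 genes from their own means over the 4 arrays, among 126 genes of the pathway and receptor lists. The closest to F2R were TFPI at 0.12 and PTGS2 at 0.16 log2 units, to F2RL1 NEDD4L at 0.13 and PROS1 at 0.15, to F2RL2 SERPINC1 at 0.13 and P2RY14 at 0.19, and to F2RL3 GP1BA at 0.29 and HPN at 0.57. PTGS2, SERPINC1, P2RY14 and HPN lay below the baseline on every array. Among all 17217 genes, 248 were closer to F2R than TFPI was and 410 were closer to F2RL1 than NEDD4L was. For F2RL2, 18 were closer than SERPINC1, and for F2RL3, 49 were closer than GP1BA. With 4 replicates of 1 state these likenesses describe array differences.

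The label was checked against marker genes. The epithelial keratins KRT8 and KRT18 stood at 4.80 ± 0.66 and 1.32 ± 0.50 and the neurofilament NEFL at 4.01 ± 0.56 log2 units (SD, n = 4 for each), with 3 of 8 kidney epithelial and 4 of 4 neurofilament markers detected. Of the neurofilaments NEFM was above the baseline on replicates 1 and 3, by 4.10 on replicate 1, stood at -1.62 and -2.24 on replicates 2 and 4, and was not called (mean 0.66 ± 3.08, SD, n = 4, limma adjusted p = 0.064). The kidney transcription factors PAX2 and PAX8 were below the baseline on all arrays, at -1.63 ± 0.74 and -3.12 ± 0.90 (SD, n = 4 for each). Of the platelet markers 0 of 5 were detected, with PF4 at -3.54 ± 0.25 (SD, n = 4), and of the endothelial markers 1 of 5, KDR, at 0.30 ± 0.85 (SD, n = 4), with VWF, TEK, PECAM1 and CDH5 at -3.17 to -3.50. The limma test called 0 of the 5 platelet and 0 of the 5 endothelial markers above the baseline, and 0 of these 10 at an unadjusted p under 0.05.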

How the data were processed

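Total RNA from 4 HEK293 cultures was hybridised in a single colour to NimbleGen HG18 expression arrays. The deposited table holds log2 values of 71998 probes on each array, made by the authors from images quantified with the NimbleScan software, and RMA is named in the submitters' processing notes. Values ran from 5.14 to 15.99 and were used as deposited. Scanner intensities were not used here, which left spot background and saturation unexamined, and the number of arrays limits the precision.

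Probes were tied to genes through the RefSeq accession in the probe name, which named 19125 of 24000 targets and 17217 genes (RefSeq, GRCh38.p14). Probes of a target were averaged on the linear scale before log2 was taken again, and a gene was the mean of its targets. Of the study's 11 seminal control genes 10 were matched, and PYY2 was not. Distances were tested against 0 with 1-sided limma 3.58 in R 4.3, with Benjamini-Hochberg adjustment over all named genes at 0.05. The estimated prior degrees of freedom were infinite, and every gene thus took the same standard error of 0.351, and a shift of a baseline moves all genes of its array together. With 4 arrays the smallest p of an exact 1-sided sign-flip test is 0.0625. The fit was checked on simulated data in which all genes had the same spread and their errors were independent. That check does not cover genes of unequal spread or a baseline error shared by all genes of an array. The members, the lists and the rules were chosen with earlier results of these data known. From each pathway list the rule named up to 3 genes of largest distance above the baseline on all arrays and those within 0.25 of it, the control genes, up to 3 measured genes on either side of each receptor and the 2 list genes of most similar array pattern. Other genes were named after their values had been seen. Alternatives changed the baseline, controls, probe summary, normalization, filter, prior, arrays and probes.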

Additional observations from a re-analysis of the deposited data

Results flagged for a closer look

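For each of 63 sets of 4 values (the levels and distances of the receptors, their probes, and the distances of named pathway, neighbouring and control genes), the gap from the most extreme array to its nearest neighbour was divided by the range. In 4 sets the ratio passed Dixon's critical value for 4 samples, which chance alone passes in about 1 of 20 sets. None belonged to a receptor or to its probes. S100Z, the gene next to F2RL1, stood at -3.21 on replicate 3 and at -2.18 to -2.11 on the others, a ratio of 0.943. GNAI2 stood at 4.56 on replicate 1 and at 3.40 to 3.60 on the others, a ratio of 0.830. The control SPESP1 stood at -2.15 on replicate 1 and at -3.82 to -3.55 on the others, a ratio of 0.836, and the control ODF1 at -3.65 on replicate 4 and at -3.42 to -3.39 on the others, a ratio of 0.862. The baseline was lowest on replicate 1 and highest on replicate 3, and its part in these gaps was not tested.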

How the results depend on the processing

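F2R and F2RL1 kept their sign and their limma call in 18 of 19 alternatives each. With a baseline of 3 SD they lost the call, at 0.73 (adjusted p = 0.095) and 0.49 (adjusted p = 0.306) log2 units. F2RL3 changed sign, to 0.54 with 1 SD, 1.55 without AFG2A and SPATA13, 1.30 with olfactory receptor genes as controls and 0.92 with the median and scaled MAD of the controls, and the limma test called it in the last 3. Under these 4 settings the baseline was lower. Leaving out 1 array in turn gave 1.89 to 2.21 for F2R, 1.51 to 1.98 for F2RL1, -2.68 to -2.05 for F2RL2 and -1.19 to -0.36 for F2RL3, with 2 of the 4 receptors detected each time. Over all alternatives 2 to 3 receptors and 6731 to 12747 genes were detected. The pathway counts stayed within 1.5 times the reported ones in 93 cases and moved further in 19. The proteases ranged from 1 to 14, the cofactors from 2 to 6, the G protein alpha subunits from 6 to 11, the response genes from 1 to 8 and the lysophospholipid receptors from 0 to 8. The values from replicates 1 and 2 alone and from replicates 3 and 4 alone were added after the data had been seen. No paired analysis was possible because the design holds a single group.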
